A study of Mus musculus with 8 samples.

Results

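Expression of 7 genes of cholesterol synthesis and its control was described in single nuclei of the mouse optic nerve (ON), the white matter tract that carries retinal ganglion cell axons to the brain. The genes were 5 enzymes (Hmgcs1, Sqle, Lss, Cyp51 and Dhcr7) and 2 regulators (Srebf2 and Insig1), chosen by name for their role in the pathway, out of 33696 genes in the count tables. The choice was made with earlier results of these data known. No receptor for cholesterol uptake was among them. Nuclei came from 4 control libraries (Piezo2 f/f) and 4 libraries labelled as the conditional knockout (cKO; Olig2-cre;Piezo2 f/f), all from female mice at P120. Both groups carried the floxed Piezo2 alleles, in which loxP sites flank exons of this mechanically gated ion channel, and the cKO mice carried Cre in addition. Cre was knocked into the Olig2 locus, so it was driven in the whole oligodendrocyte (OL) lineage from its precursors on, and mice with this allele have a single intact Olig2 copy. A control with Olig2-cre and without the floxed alleles was not among the libraries, so recombination of Piezo2 and loss of an Olig2 copy cannot be told apart. Each library pooled 6 ONs of 3 mice, so a replicate is a pool and the spread between animals within it is not seen.

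Cholesterol is made in the cell from acetyl-CoA by the mevalonate pathway and cannot be taken up by the brain from lipoproteins of the blood, so cells of the central nervous system depend on their own synthesis and on transfer between neighbours. It is a main lipid of myelin, and OLs of the growing nerve make it in large amounts. Hmgcs1 forms HMG-CoA near the start of the pathway, Sqle oxidises squalene, Lss closes the ring to lanosterol, Cyp51 removes a methyl group of lanosterol, and Dhcr7 carries out a final reduction to cholesterol. Srebf2 encodes SREBP2, the transcription factor that turns on the enzymes when sterols are low, and Insig1 holds SREBP in the endoplasmic reticulum when sterols are high.

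SREBP2 acts at promoters, often beside the factor NF-Y, so the sequence before the start of 3 of the genes is shown: Hmgcs1 as the enzyme with the widest spread between libraries, and the regulators Insig1 and Srebf2. Sequences were taken from RefSeq windows (table of GRCm38.p6) and located in GRCm39 by exact match, where they lie on the plus strand at chr13:120151637-120151886 (Hmgcs1), chr5:28276160-28276314 (Insig1) and chr15:82031220-82031381 (Srebf2). The Hmgcs1 sequence ended 28 bases before the annotated start of the gene, and the other two ended at the base before it. Capitals mark letters found in a search of both strands for TCACNCCAC (a sterol response element), CCAAT (the core bound by NF-Y, printed as ATTGG where it lies on the other strand) and CACGTG (an E-box, which reads the same on both strands).

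Hmgcs1: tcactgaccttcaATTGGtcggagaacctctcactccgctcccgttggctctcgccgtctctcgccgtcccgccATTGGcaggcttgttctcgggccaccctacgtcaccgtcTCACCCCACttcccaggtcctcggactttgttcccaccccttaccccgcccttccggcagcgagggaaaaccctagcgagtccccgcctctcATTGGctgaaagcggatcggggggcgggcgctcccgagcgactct

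Insig1: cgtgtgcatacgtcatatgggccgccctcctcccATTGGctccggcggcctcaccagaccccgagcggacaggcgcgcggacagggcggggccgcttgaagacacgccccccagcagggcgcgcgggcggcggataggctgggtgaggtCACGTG

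Srebf2: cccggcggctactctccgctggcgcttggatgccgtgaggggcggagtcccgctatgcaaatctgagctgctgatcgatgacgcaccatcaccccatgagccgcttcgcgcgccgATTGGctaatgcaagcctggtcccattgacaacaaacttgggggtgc

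TCACNCCAC was present in 1 of the 8 windows of the 6 genes with a window, that of Hmgcs1, and in 1.24% of all 32851 windows of RefSeq. CCAAT was present in 6 of the 8 windows of these 6 genes, against 37.4% of all windows, and CACGTG in 2 of the 8, of Insig1 and Dhcr7, against 7.15%. These are matches of letters and not sites shown to be bound. Sqle had no window.

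In GRCm39 the genes lie at chr13:120151915-120170470 (Hmgcs1), chr15:59186869-59203043 (Sqle), chr10:76367298-76392976 (Lss), chr5:4123416-4154751 on the minus strand (Cyp51), chr7:143376740-143402149 (Dhcr7), chr15:82031382-82093201 (Srebf2) and chr5:28276315-28283668 (Insig1). Srebf2 is overlapped on its own strand by Mir33 and Gm49502, so reads could be shared there. Counts were unique molecular identifiers (UMIs) from the 3' end and include introns, and a gene with long introns gives more of them. Levels are therefore compared between cell types for the same gene and not between genes.

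The 8 libraries held 39628926 to 56541132 UMIs, of which 33.7% to 47.9% lay in barcodes called as nuclei. After filters, 37212 nuclei remained (3424 to 6212 per library), with a median of 2384.5 to 3314 UMIs. Of these, 19101 were OLs, 8121 astrocytes, 3618 fibroblasts, 1597 myeloid cells, 734 OL precursor cells (OPCs), 435 endothelial cells, 390 neurons, 140 T cells, 128 committed OPCs and 76 mural cells, named from fixed markers, and 2872 stayed unnamed. Libraries shared at most 21 called barcodes in any pair. Piezo2 and Olig2 transcripts were not lower in OLs of libraries labelled cKO (540 ± 22.1 against 449 ± 59.2 CPM for Piezo2, SD, n = 4), and 3' counts need not cover the floxed exons, so the genotype labels could not be checked from these genes. Of the OLs, 1143 formed a cluster with 83.5% of its nuclei from control replicate 3. Without it, none of the 49 log2 differences of these genes fitted with OLs changed its call, and the largest shift was 0.08. Pomc, a pituitary hormone gene, reached 83.7 CPM in the OLs of that library, against 4.07, 12.8 and 6.31 CPM in the OLs of the other controls, and it stood at 78.1 CPM in astrocytes, 84.9 CPM in fibroblasts, 352 CPM in neurons and 6.74 CPM in committed OPCs of that library. Neurons of control replicate 2 held 196 CPM of Pomc, against 0 and 11.5 CPM in those of control replicates 1 and 4. Control replicate 3 gave 131 of the 230 neurons of the controls.

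OLs held the highest mean level of all 7 genes among the 10 cell types of the control libraries. UMIs were summed over the nuclei of a type in each library and given as CPM, which scales each sum to the same total, so a higher level may mean more nuclei with a transcript or more transcripts per nucleus. In control replicates 1 to 4, OLs held 211, 321, 450 and 523 CPM of Hmgcs1, and astrocytes of the same libraries held 106, 165, 156 and 227 CPM. Within each library the OL value was thus the higher one, although the ranges of both cell types overlapped. Sqle stood at 71.1, 76.2, 94.1 and 113 CPM in OLs and at 39.4, 45.0, 52.3 and 71.0 CPM in astrocytes. These ranges did not overlap but nearly met. Lss, the lanosterol synthase, stood at 27.1, 40.7, 44.6 and 52.3 CPM in OLs and at 18.6, 17.3, 9.45 and 17.3 CPM in astrocytes, with no overlap. Cyp51 stood at 89.6, 115, 127 and 222 CPM in OLs and at 56.9, 67.1, 81.3 and 94.7 CPM in astrocytes. Control replicate 1 was the lowest and control replicate 4 the highest for Cyp51 in both cell types, and the ranges overlapped.

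Dhcr7 was counted at 20.5, 30.1, 35.3 and 37.8 CPM in OLs and at 8.61, 16.0, 14.5 and 16.0 CPM in astrocytes, with no overlap. Of the regulators, Srebf2 was the steadiest gene, at 205, 178, 187 and 224 CPM in OLs and at 145, 135, 149 and 151 CPM in astrocytes, again with no overlap. Insig1 stood at 47.1, 61.4, 78.6 and 82.2 CPM in OLs and at 31.0, 43.0, 49.1 and 61.4 CPM in astrocytes, and these ranges overlapped. Taken within a library, the ratio of OLs to astrocytes was above 1 in 8 of 8 libraries for all 7 genes. Its median was 2.00 for Hmgcs1, 1.59 for Sqle, 2.41 for Lss, 1.64 for Cyp51, 2.22 for Dhcr7, 1.31 for Srebf2 and 1.42 for Insig1. The ratios to fibroblasts and to myeloid cells were above 1 in 8 of 8 libraries for all 7 genes as well. The share of all genes with such ratios between cell types was not counted, nor that with ranges that did not overlap. How unusual these counts are is therefore not known.

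**Figure D1:**
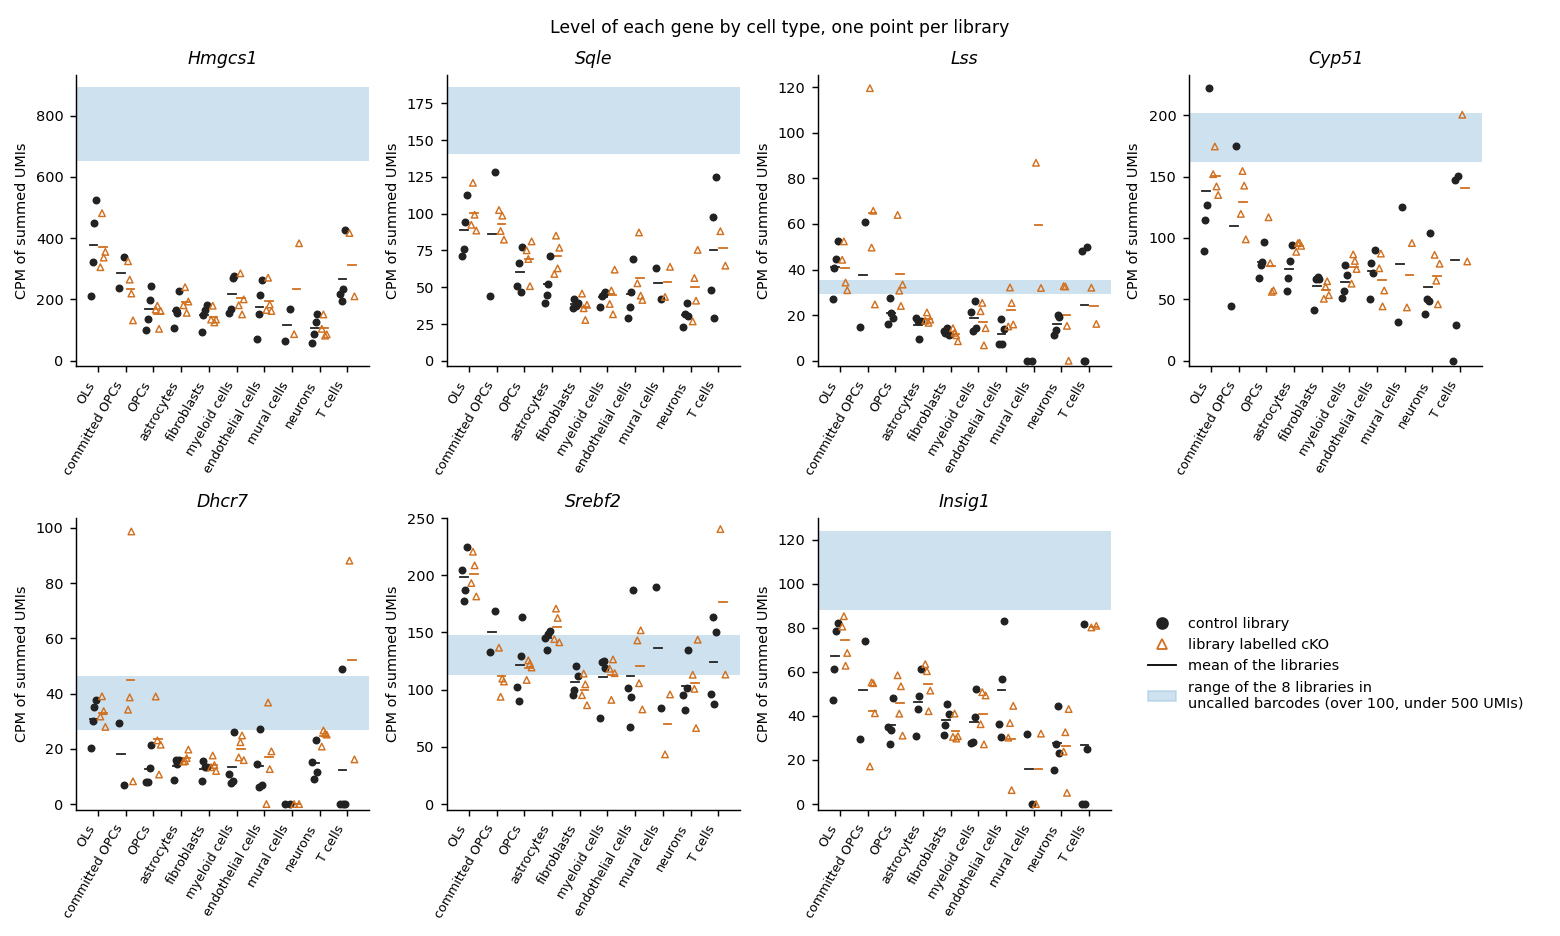
Level of each gene (vertical axis, CPM of summed UMIs) by cell type, one point per library, for control libraries (filled circles) and libraries labelled cKO (open triangles), with the mean of each group as a bar and, as a band, the range over 8 libraries in uncalled barcodes of over 100 and under 500 UMIs. OLs lead in the controls, and for Hmgcs1 the band, from 653 to 892 CPM, lies above every cell type.

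Below the OLs, the order of the cell types was not resolved. Committed OPCs came next for all 7 genes in the controls, but from 2 sums of few nuclei, for example 236 and 337 CPM against 376 ± 138 CPM (SD, n = 4) in OLs for Hmgcs1. The range of each rank overlapped that of the next for every gene, except between OLs and committed OPCs for Srebf2 and between endothelial and mural cells for Lss. Neurons were lowest of all types for Hmgcs1 (106 ± 42.9 CPM, SD, n = 4), Sqle (31.2 ± 6.72 CPM, SD, n = 4), Cyp51 (60.1 ± 29.6 CPM, SD, n = 4) and Srebf2 (103 ± 22.4 CPM, SD, n = 4). The paper takes its own neuronal cluster to be likely contamination from brain beside the nerve. Values in neurons, here and below, may thus not be those of ON cells. Lss and Dhcr7 had 0 UMIs among 55489 in mural cells of the controls, which allows up to 54.1 CPM, above the level in OLs. In libraries labelled cKO, OLs ranked first for Hmgcs1, Sqle, Cyp51 and Srebf2, and behind T cells, mural cells or committed OPCs, all of few nuclei, for the others.

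Each cell type was tested against the mean of the other types with edgeR's quasi-likelihood test on the summed counts, and a gene was called at a Benjamini-Hochberg adjusted p under 0.05 and a log2 difference over 0.5. In OLs of the control libraries 7 of 7 genes were called higher, where 26% of the 13288 genes tested were called higher in OLs. The log2 differences were 1.48 ± 0.20 for Hmgcs1 (SE, adjusted p = 3.43e-08), 1.10 ± 0.15 for Sqle, 2.24 ± 0.29 for Lss, 1.23 ± 0.19 for Cyp51, 2.17 ± 0.35 for Dhcr7, 1.05 ± 0.14 for Srebf2 and 1.20 ± 0.21 for Insig1 (adjusted p = 6.06e-06, the highest of the 7). The median over all genes tested was 0.26. The values for Lss and Dhcr7 rest in part on types of few nuclei, and without mural cells, T cells and committed OPCs they were 1.57 ± 0.15 and 1.32 ± 0.19. Both genes were at 0 UMIs in mural cells and at 4 and 3 UMIs in T cells. The 3 types were left out together, so the part of each was not separated. In libraries labelled cKO, which that fit did not use, 7 of 7 genes were again called higher in OLs, against 26.9% of 12982 genes. There the differences were 1.30 ± 0.14 for Hmgcs1, 1.12 ± 0.13 for Sqle, 1.00 ± 0.19 for Lss, 1.19 ± 0.12 for Cyp51, 1.62 ± 0.35 for Dhcr7, 1.15 ± 0.12 for Srebf2 and 1.28 ± 0.16 for Insig1. Dhcr7 was at 0 UMIs in mural cells there too, and its difference was 1.02 ± 0.14 without the same 3 types.

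Over all genes, the direction of the OL comparison depended on the scaling. Of the genes called in control OLs, 77.1% were higher with TMM normalisation, 53% without it and 29.7% with DESeq2, and the median over all genes moved from 0.26 to -0.09 and -0.20. The 7 genes were called higher in OLs in every one of these fits. Without TMM the control differences ran from 0.67 (Srebf2) to 1.96 (Lss), and with DESeq2 from 0.70 (Srebf2) to 1.30 (Lss). In libraries labelled cKO the share of calls that were higher was 74.3% with TMM, 49.3% without it and 32.9% with DESeq2. Over all alternatives there, the differences in OLs went as low as 0.70 for Dhcr7 and 0.64 for Lss, both still called.

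Transcripts of several of these genes were abundant in barcodes that were not called as nuclei. In barcodes that were not called as nuclei and held over 100 and under 500 UMIs, Hmgcs1 stood at 653 to 892 CPM over the 8 libraries, above the 211 to 523 CPM of OLs. Sqle stood there at 141 to 187 CPM and Insig1 at 87.9 to 124 CPM, also above OLs, whereas Srebf2, at 113 to 148 CPM, was below the 178 to 224 CPM of OLs. In barcodes of 1 to 100 UMIs, named empty droplets below, Hmgcs1 stood lower, at 389 to 582 CPM, and Sqle at 94.2 to 131 CPM. Both ranges overlapped those of OLs. Srebf2, at 124 to 181 CPM there, also overlapped OLs, and Insig1, at 86.2 to 192 CPM, was above them. These barcodes held very few UMIs each (674681 barcodes with 916619 UMIs in control replicate 1). Piezo2 stood at 96.6 to 189 CPM in them, against 38.5 to 77.5 CPM in the barcodes of over 100 UMIs. The 2 pools thus differ in content, and how far each holds RNA from outside nuclei was not tested. When the counts expected from RNA outside nuclei were subtracted, with the profile of barcodes ranked 45000 to 90000 by UMIs in place of either pool, which removed 28.9% of the Hmgcs1 UMIs of OLs, 58.7% of those of astrocytes, 79.7% of those of fibroblasts and 89.7% of those of OPCs, mean Hmgcs1 was 311 CPM in OLs, 84.7 CPM in astrocytes, 35.3 CPM in fibroblasts and 17.7 CPM in OPCs. For Srebf2 the subtraction removed 9.21% of the UMIs of OLs and 11.7% of those of astrocytes. All 7 genes were still called higher in OLs afterwards, with control differences from 1.26 ± 0.18 (Srebf2) to 4.91 ± 0.47 (Hmgcs1). The Hmgcs1 value is taken against types left with very little. Over the 8 libraries endothelial cells kept 4.84 CPM, with 98.4% of their UMIs removed, and neurons 12.2 CPM.

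Outside OLs, 2 calls were made in the controls and 9 in the libraries labelled cKO, and these counts moved with the setting. With 1 library left out there were 1 (without control replicate 1 or 3) to 4 (without control replicate 2) in the controls and 6 (without cKO replicate 12) to 14 (without cKO replicate 13) in the others, and under the remaining alternatives 1 to 6 and 5 to 14. In the controls, neurons were lower for Hmgcs1 (-0.73) and Sqle (-0.68), 2 of 7 genes where 8.35% of genes were called lower in neurons. Neither was called when counts from outside nuclei were subtracted, where Hmgcs1 was at -0.40 ± 2.41 and Sqle, with the same value and a larger SE, at -0.68 ± 0.50, or when control replicate 1 (-0.59 and -0.54) or 3 (-0.81 and -0.83) was left out, and the Sqle call was also lost without control replicate 4 (-0.55) and without the filter on low counts (-0.63). In libraries labelled cKO, 4 of 7 genes were lower in fibroblasts (Hmgcs1 -0.59, Sqle -0.89, Lss -1.42 and Cyp51 -0.72), against 9.04% of all genes, and of these Lss was called after the subtraction too. The other 3 were not, with larger SEs at -0.85 ± 0.52 for Hmgcs1, -1.53 ± 0.68 for Sqle and -0.65 ± 0.48 for Cyp51. Hmgcs1 was not called in fibroblasts without cKO replicate 11 either (-0.44). Hmgcs1 was also lower in neurons there (-0.89, against 7.98% of all genes), and this call was lost only without mural cells, T cells and committed OPCs and with the subtraction together (-2.09 ± 0.97, adjusted p = 0.106). The remaining calls in those libraries were Sqle lower in myeloid cells (-0.55, against 9.27% of genes called lower), Insig1 higher in astrocytes (0.53, against 25.9% of genes called higher) and Lss (1.23) and Cyp51 (0.68) higher in committed OPCs, against 10.1%. Each of these 4 calls was lost in at least 5 of the other settings tried. Among these, Sqle was lost without cKO replicate 11 (-0.46) or 12 (-0.36), Insig1 without cKO replicate 10 (0.21) or 13 (0.50), Cyp51 without cKO replicate 11 (0.62) or 12 (0.59), and Lss without cKO replicate 10 (1.14), 11 (1.41) or 12 (1.07). With the library as a block, which pairs the cell types of a library, 5 and 12 calls were made outside OLs. Those gained were Hmgcs1 (0.92 ± 0.23) and Sqle (1.08 ± 0.35) higher in committed OPCs and Sqle lower in fibroblasts (-0.51 ± 0.17) in the controls, and Lss lower in astrocytes (-0.52 ± 0.21) and myeloid cells (-0.77 ± 0.30) and higher in OPCs (0.77 ± 0.27) in libraries labelled cKO. The subtraction gained calls as well, among them Hmgcs1 higher in astrocytes (2.20 ± 0.70) and myeloid cells (2.68 ± 0.70) of the controls, where it had been at -0.07 ± 0.23 and 0.23 ± 0.24. Mean Hmgcs1 over the libraries of both groups fell in these types too, from 178 to 84.7 CPM and from 211 to 89.8 CPM. The types they were set against were left with less, such as 4.84 CPM in endothelial cells, 12.2 CPM in neurons and 17.7 CPM in OPCs.

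**Figure D2:**
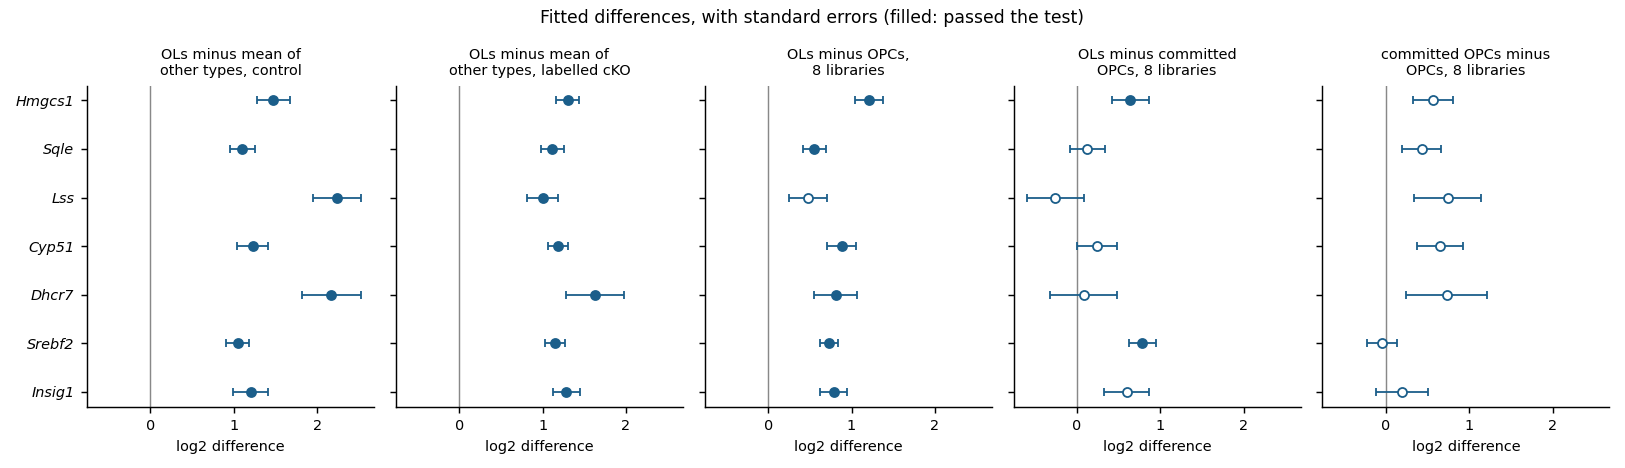
Fitted log2 difference of each gene (horizontal axis) with its standard error, for OLs against the mean of the other cell types in each group of libraries and for the steps of the OL lineage, where filled points passed the test. All 7 genes passed in OLs in both groups, 6 passed between OLs and OPCs, and none passed between committed OPCs and OPCs.

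The other genes of the pathway were counted from lists of 32 genes. Of 14 further synthesis enzymes, 12 were tested in the controls and 12 of the 12 were higher in OLs (median 1.18), where 26% of all genes were called higher, 7.71% were called lower and the median was 0.26. Among them were Fdft1, which makes squalene (1.59 ± 0.16), Msmo1 (1.46 ± 0.19), Sc5d (1.37 ± 0.17) and Fdps (1.12 ± 0.16). In libraries labelled cKO 12 of 13 were higher, against 26.9% of all genes. Of 5 genes that control SREBP, 2 were called higher in OLs of the controls, beside the 26% of all genes: Scap, the SREBP escort protein (0.79 ± 0.14), and Srebf1 (1.51 ± 0.44). Of 8 genes for uptake, transport and storage, 5 were higher, among them the lipoprotein receptor Vldlr (1.94 ± 0.15), the lysosomal transporter Npc1 (1.36 ± 0.15) and Stard3 (1.43 ± 0.18), and 2 were lower, of which Lrp1, another lipoprotein receptor, was at -2.54 ± 0.21. Of 5 genes of LXR control and efflux, the exporter Abcg1 was higher (2.17 ± 0.17) and Nr1h3 (-2.23 ± 0.47) and Mylip (-1.17 ± 0.43) were lower. Here and below, fitted differences of the pathway lists come from the first fits only, with TMM and no subtraction. Alternatives are not given for them. The other types include control mural cells, of few nuclei, with a median of -1.02 for the synthesis enzymes and -1.85 for the genes that control SREBP.

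The cholesterol exporters differed between the glial types. Abcg1 stood at 164 ± 17.1 CPM (SD, n = 4) in control OLs and at 13.8 ± 4.66 CPM in astrocytes, whereas Abca1 stood at 60.6 ± 2.78 CPM in OLs and at 206 ± 26.2 CPM in astrocytes. Against the mean of the other types, astrocytes were higher for Abca1 (1.82 ± 0.17), for Soat1, which esterifies cholesterol for storage (1.97 ± 0.17), and for Srebf1 (2.18 ± 0.35), and lower for Abcg1 (-2.07 ± 0.27). Among the synthesis enzymes, 2 of 12 were called higher in astrocytes, Nsdhl (1.49 ± 0.38) and Hsd17b7 (0.78 ± 0.27), a share below the 28.4% of all genes called higher there.

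Along the OL lineage, 6 of the 7 genes were higher in OLs than in OPCs. OPCs held 99.6, 137, 200 and 244 CPM of Hmgcs1 in control replicates 1 to 4, and 167, 179, 104 and 162 CPM in cKO replicates 10 to 13. The OL value of the same library was higher in 8 of 8 libraries. Srebf2 stood at 102, 90.1, 130 and 163 CPM in control OPCs and at 109, 126, 123 and 119 CPM in cKO OPCs, below the OLs of the same library in 8 of 8 libraries. The log2 differences between OLs and OPCs were 1.21 ± 0.17 for Hmgcs1 (SE, adjusted p = 9.75e-08), 0.55 ± 0.14 for Sqle, 0.88 ± 0.17 for Cyp51, 0.81 ± 0.26 for Dhcr7, 0.73 ± 0.11 for Srebf2 and 0.78 ± 0.16 for Insig1. These 6 calls stand against 22.4% of 9847 genes called higher in OLs, and with DESeq2 the Sqle call was lost (0.48 ± 0.15). After counts from outside nuclei were subtracted, all 7 genes were called, and the differences were larger, at 3.97 ± 0.59 for Hmgcs1, 1.62 ± 0.35 for Sqle, 2.02 ± 0.36 for Cyp51, 2.22 ± 0.41 for Insig1 and 1.56 ± 0.47 for Dhcr7. The share of the sum subtracted, the smallest over the marker lists of other types, was larger in most OPC sums. It was 4.08% in OPCs of cKO replicate 10 and 18.0% to 38.5% in those of the other libraries, against 11.3% to 19.1% in OLs. The size of these differences therefore depends on that share. Dhcr7, although called, was higher in OLs than in OPCs in 7 of 8 libraries, with a ratio of 0.81 in cKO replicate 10. Lss was not called (0.48 ± 0.23, adjusted p = 0.0655), and it was lower in OLs than in OPCs in 2 of 8 libraries. OPCs of cKO replicate 10 held 64.0 CPM of Lss against 16.1 to 33.4 CPM in the other libraries, and Lss was called without that replicate (0.74 ± 0.23) or cKO replicate 13 (0.58 ± 0.23). With all libraries kept, it was called without the filter on low counts (0.59 ± 0.18) and after the subtraction (0.79 ± 0.30), and with the library as a block it missed only the limit of 0.5 (0.48 ± 0.19, adjusted p = 0.0227).

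Committed OPCs, the short-lived stage between both, were scarce: 6 libraries had the 10 nuclei required, and their sums held 16 to 50 UMIs of Hmgcs1 and 1 to 9 of Lss or Dhcr7. Nuclei of their cluster had a median of 1.89 times the median UMIs of their library, and the cluster also passed the OPC markers. Other clusters above 1.3 times with markers of another type were left unnamed as mixtures, and this cluster was exempted. Whether it holds doublets was not tested. Between committed OPCs and OPCs edgeR called 0 of 7 genes, against 10.5% of genes called higher and 15.7% called lower. Cyp51 (0.65 ± 0.28) and Hmgcs1 (0.57 ± 0.24) had an unadjusted p under 0.05, 2 of 7 genes, with adjusted p of 0.086 and 0.0793. With the library as a block, since the OPCs and OLs of a library come from the same mice, both were called (Cyp51 0.70 ± 0.21 and Hmgcs1 0.56 ± 0.17). Cyp51 was also called without control replicate 1 (0.75) or 4 (0.67) or cKO replicate 10 (0.80), and Hmgcs1 without control replicate 4 (0.65) or cKO replicate 13 (0.72). After the subtraction of counts from outside nuclei 3 genes were called, with larger differences: Hmgcs1 (3.03 ± 0.79), Cyp51 (1.66 ± 0.52) and Sqle (1.40 ± 0.53). It removed 39.1% of the Hmgcs1 UMIs of committed OPCs and 89.7% of those of OPCs. Between OLs and committed OPCs, Hmgcs1 (0.64 ± 0.22, adjusted p = 0.0191) and Srebf2 (0.78 ± 0.16, adjusted p = 0.000183) were higher in OLs, 2 of 7 genes against 17.4% of all genes. The Hmgcs1 call was lost without TMM (0.55 ± 0.23), after the subtraction, with a larger value and SE (0.94 ± 0.57), and without cKO replicate 11 (0.60) or 13 (0.51). Insig1 (0.59 ± 0.27, adjusted p = 0.0821) was called with the block (0.61 ± 0.24), without the filter on low counts (0.78 ± 0.26) and without control replicate 3 (0.89). Of the pathway lists, 8 of 13 synthesis enzymes tested were higher in OLs than in OPCs, against 22.4% of all genes, among them Idi1 (1.22 ± 0.22) and Msmo1 (1.11 ± 0.16). Of the receptors, Lrp1 fell from 388 ± 34.1 CPM in control OPCs to 19.6 ± 2.96 CPM in OLs (-4.29 ± 0.13), and Vldlr rose from 52.2 ± 9.32 to 152 ± 15.4 CPM (1.46 ± 0.11).

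Within OLs, cluster levels were summed over libraries, whose shares differed between clusters, so differences between libraries enter them. Over the 14 OL clusters, which were formed without these genes, Srebf2 ranged from 184 to 210 CPM, Insig1 from 48.2 to 89.0 CPM, Sqle from 70.0 to 120 CPM and Hmgcs1 from 297 to 541 CPM. The cluster with the highest Hmgcs1 held the fewest UMIs per nucleus. OLs of the controls were then ordered by a score of mature (Trf, Apod, Klk6) against myelin-forming (Mbp, Mog, Mal) transcripts, and of 3 equal parts the upper and the lower were compared. Sqle stood at 77.8, 85.7, 111 and 126 CPM in the upper and at 62.1, 64.1, 84.5 and 99.6 CPM in the lower part of control replicates 1 to 4. It was higher in 4 of 4 libraries, by 0.36 ± 0.18, with an adjusted p of 0.664. With the library as a block, which pairs the parts of a library, the difference was 0.35 ± 0.09 (edgeR, adjusted p = 0.00302), below the 0.5 required for a call, and with each nucleus also thinned to 1000 UMIs it was 0.21 ± 0.14 (adjusted p = 0.679). Dhcr7 was also higher in 4 of 4 libraries (25.0, 32.7, 34.6 and 49.8 against 20.4, 30.2, 28.7 and 23.4 CPM), by 0.43 ± 0.21, with an adjusted p of 0.621 (0.40 ± 0.15 and 0.0928 with the block). Without the block edgeR called 0 of 7 genes, with 0 at an unadjusted p under 0.05, and DESeq2 called 0, where 0.874% of 11329 genes were called higher and 0.618% lower. With the block, Hmgcs1 (0.13 ± 0.05, edgeR, adjusted p = 0.141) and Cyp51 (0.18 ± 0.07, adjusted p = 0.152) had an unadjusted p under 0.05 beside Sqle and Dhcr7. None of these had one with thinning as well.

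OLs with at least 1 Piezo2 UMI were compared with those without in the same way. Srebf2 was the gene with the lowest p, at 216, 187, 194 and 233 CPM in Piezo2+ and at 187, 163, 177 and 202 CPM in Piezo2- OLs, higher in 4 of 4 libraries by 0.21 ± 0.11 with an adjusted p of 0.646. With the library as a block the difference was 0.20 ± 0.05 (edgeR, adjusted p = 0.00222), again below 0.5, and with thinning to 1000 UMIs as well it was 0.10 ± 0.09 (adjusted p = 0.77). Piezo2+ nuclei were deeper, with medians of 2619.5 to 3375 against 1852.5 to 2548.5 UMIs. Without the block edgeR called 0 of 7 genes, with 0 at an unadjusted p under 0.05, DESeq2 called 0, and 0 were called when each nucleus was thinned to 1000 UMIs. With the block, Sqle (0.18 ± 0.08, edgeR, adjusted p = 0.0866) and Cyp51 (0.15 ± 0.06, adjusted p = 0.102) had an unadjusted p under 0.05 beside Srebf2. None of these had one with thinning as well. Of all genes, 0.495% were called higher and 0.154% lower. The intervals of 2 SE with the block reached from -0.12 to 0.05 for Hmgcs1 and from 0.09 to 0.31 for Srebf2, and without it from -0.57 to 0.54 and from -0.02 to 0.43.

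Of the 7 genes, 6 differed more between control libraries than the median gene did. The SD of log2(CPM + 1) over the OLs of the 4 controls was 0.58 for Hmgcs1, 0.55 for Cyp51, 0.39 for Lss, 0.38 for Dhcr7, 0.36 for Insig1, 0.30 for Sqle and 0.15 for Srebf2, against a median of 0.17 over 9595 genes. Control replicate 1 was lowest for 6 of 7 genes, all but Srebf2, and control replicate 4 was highest for 7 of 7. Among the libraries labelled cKO, replicate 11 was highest for 7 of 7. Control replicate 1 also had the fewest UMIs of the 8 libraries (39628926) and control replicate 4 the fewest nuclei (3424). In uncalled barcodes, Hmgcs1 was lowest in control replicate 1 (653 CPM) and highest in cKO replicate 11 (892 CPM) and control replicate 4 (855 CPM). The part of these measures in the spread was not tested.

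Levels in OLs and astrocytes of the same library were compared across the 8 libraries, with an exact permutation test over pairings and adjustment over 21 relations. Insig1 had the closest relation (Pearson's r = 0.957, exact permutation p = 0.00102, adjusted 0.0214; Spearman's rho = 0.857, exact permutation p = 0.0107, adjusted 0.045), and r was 0.854 without the 2 libraries farthest from the median. Within groups r was 0.965 over the 4 controls and 0.941 over the 4 libraries labelled cKO, which are too few for a test. For Sqle r was 0.852 (exact permutation, adjusted p = 0.0405), for Hmgcs1 0.832 (exact permutation, adjusted p = 0.0405) and for Cyp51 0.83 (exact permutation, adjusted p = 0.0405), while their rho did not pass after adjustment (0.738, 0.643 and 0.786). Over all libraries the relation of Hmgcs1 rested on control replicates 1 and 4, without which r was 0.446, although within groups r was 0.900 over the controls and 0.846 over the libraries labelled cKO. That of Cyp51 was 0.937 over the controls and 0.097 over the libraries labelled cKO, and that of Sqle 0.984 and 0.565. For Srebf2 rho was 0.857 (exact permutation, adjusted p = 0.045) and r 0.773 (exact permutation, adjusted p = 0.0527), and for Dhcr7 and Lss r was 0.641 and -0.103. The median r over 8953 genes was 0.561, so libraries shared deviations in most genes, and OLs and astrocytes of a library also share the RNA outside nuclei. After subtraction of that RNA, r was 0.936 for Insig1 (exact permutation, adjusted p = 0.0234), and its rho of 0.714 did not pass. For Sqle (0.752), Cyp51 (0.739) and Hmgcs1 (0.557) r no longer passed, and for Srebf2 rho stayed at 0.857 (adjusted p = 0.045). Levels in OLs and in uncalled barcodes of over 100 and under 500 UMIs were related for Cyp51 (rho = 0.905) and Insig1 (rho = 0.881), each with an adjusted exact permutation p of 0.045. For the other genes neither r nor rho of that relation passed.

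**Figure D3:**
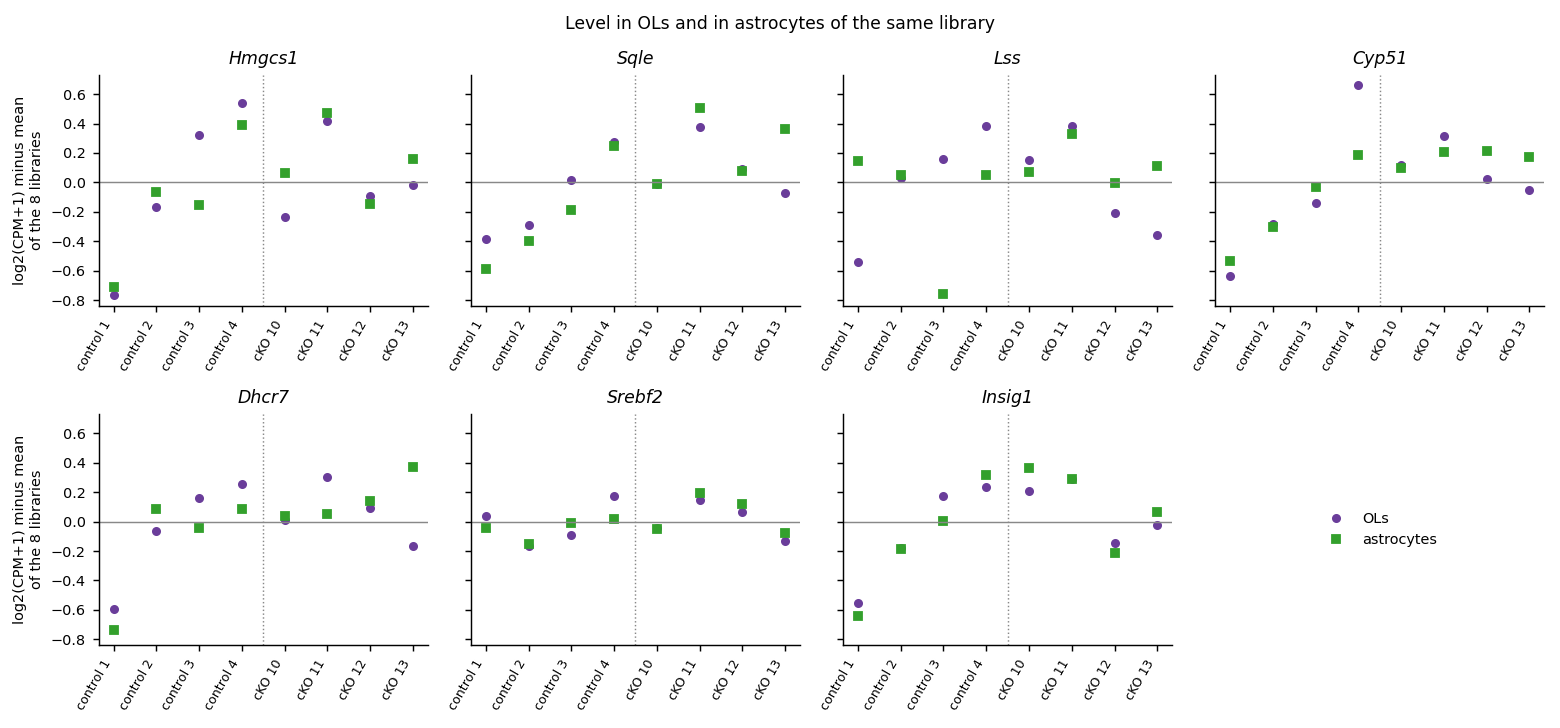
Level of each gene in OLs (circles) and astrocytes (squares) of the same library, as log2(CPM + 1) minus the mean over the 8 libraries (vertical axis), with libraries on the horizontal axis and the genotypes on either side of the dotted line. OLs and astrocytes deviate together for Insig1 and Srebf2, and for Lss control replicate 3 deviates in astrocytes.

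Between genotypes, no difference of these genes was called in OLs. Hmgcs1 stood at 305, 481, 337 and 355 CPM in OLs of cKO replicates 10 to 13, within the 211 to 523 CPM of the controls. Srebf2 stood at 193, 221, 209 and 182 CPM and Insig1 at 80.5, 85.2, 62.8 and 68.5 CPM. The ranges of both groups overlapped for all 7 genes, where they did not for 6.87% of genes with a mean of at least 10 CPM in OLs. The log2 differences, cKO minus control, ran from -0.04 ± 0.23 (Hmgcs1) to 0.17 ± 0.15 (Sqle). edgeR called 0 of 7 genes, with 0 at an unadjusted p under 0.05, and DESeq2 called 0, where 0.09% of 14438 genes were called in either direction. The interval of 2 SE was narrowest for Srebf2, from -0.20 to 0.21, and widest for Hmgcs1, from -0.50 to 0.42. In simulated counts of OLs, 99% of genes changed by a log2 of 1 were recovered. These genes were drawn from the range of levels of the 7 genes and were not matched to their spread between libraries. Most of the 7 spread more than the median gene (SD of log2(CPM + 1) in control OLs 0.58 for Hmgcs1, median 0.17). Recovery at their spread was not measured. Smaller changes were not simulated, and a log2 difference under 0.5 would not have been called whatever its error.

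In astrocytes all 7 differences were above 0, and none was called. Sqle stood at 39.4, 45.0, 52.3 and 71.0 CPM in the controls and at 59.1, 85.1, 62.9 and 76.9 CPM in libraries labelled cKO (0.44 ± 0.18, adjusted p = 0.613). Cyp51 stood at 56.9, 67.1, 81.3 and 94.7 CPM in the controls and at 88.7, 95.7, 96.1 and 93.6 CPM in libraries labelled cKO (0.32 ± 0.14, adjusted p = 0.65). In both genes control replicates 1 to 3 lay below every library labelled cKO, and the groups overlapped through control replicate 4. The other 5 genes lay between 0.09 ± 0.10 (Srebf2) and 0.31 ± 0.21 (Dhcr7). edgeR called 0 of 7 genes, with 2 at an unadjusted p under 0.05, and DESeq2 called 0, and 0% of 14365 genes were called by edgeR in this cell type. The sign was the same in all 98 alternative values of the 7 genes. The 7 genes share their libraries and deviate together across them, so their common sign is not 7 separate observations. The share of all genes above 0 in astrocytes was not counted, and that at an unadjusted p under 0.05 is not given here. The common sign and the 2 genes at that p thus stand without a background. The difference of the genotype effect between OLs and astrocytes was tested as an interaction, and edgeR called 0 of 7 genes, with 0 at an unadjusted p under 0.05, as did DESeq2, against 0.0188% of 15920 genes.

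**Figure D4:**
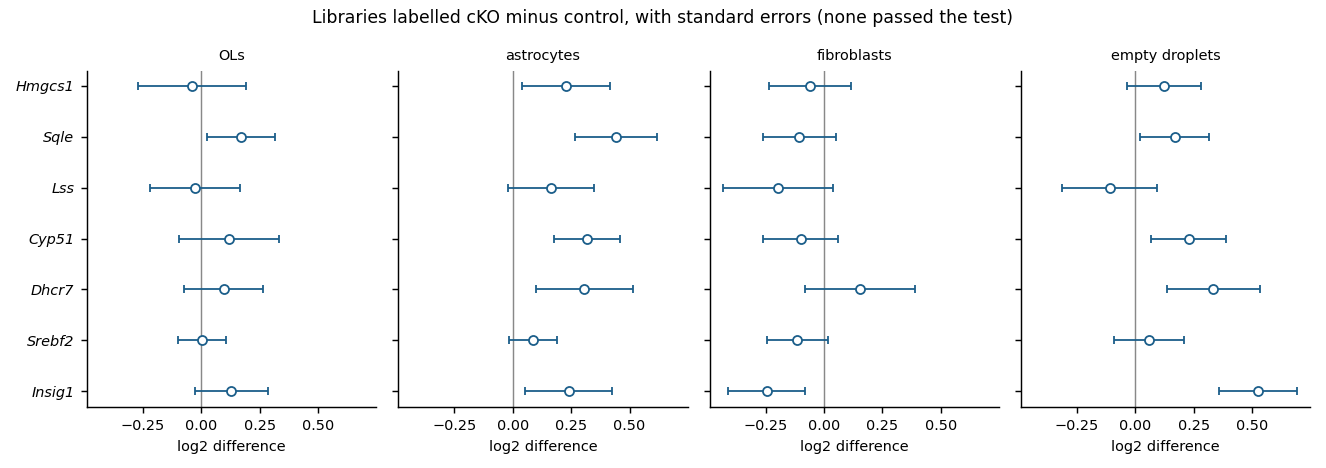
Fitted log2 difference of each gene between libraries labelled cKO and controls (horizontal axis), with its standard error, in OLs, astrocytes, fibroblasts and empty droplets. No point passed the test, and in astrocytes all 7 lie above 0, from 0.09 to 0.44. The share of all genes above 0 there was not counted.

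In most of the other cell types fewer of the 7 genes passed the filter on low counts. In OPCs 6 genes were tested, and Lss was the largest difference (16.1, 27.4, 20.8 and 18.7 CPM in controls against 64.0, 30.8, 24.1 and 33.4 CPM in libraries labelled cKO, with groups that overlapped, 0.88 ± 0.36, adjusted p = 0.633). These values rest on 6 to 23 UMIs a library. edgeR called 0 of 6 genes there, with 1 at an unadjusted p under 0.05, and DESeq2 called 0, where 0.188% of 6930 genes were called. In fibroblasts 7 genes were tested, and their differences ran from -0.25 ± 0.17 (Insig1) to 0.15 ± 0.24 (Dhcr7). Of the genes tested in committed OPCs (4), myeloid cells (5), endothelial cells (3), neurons (4) and T cells (1), edgeR and DESeq2 called 0, with 0 at an unadjusted p under 0.05, and in mural cells no gene of the 7 could be tested. The largest difference in these types was that of Sqle in neurons (0.64 ± 0.34, edgeR, adjusted p = 0.925). Background shares were 0% in fibroblasts, myeloid cells, endothelial cells, neurons and T cells and 0.0374% in committed OPCs. In empty droplets (1 to 100 UMIs) Insig1 was at 86.2, 119, 97.3 and 139 CPM in controls and at 159, 192, 151 and 134 CPM in libraries labelled cKO, with groups that overlapped (0.53 ± 0.17, adjusted p = 0.999). edgeR called 0 of 7 genes there, with 1 at an unadjusted p under 0.05, and DESeq2 called 0, where 0.0611% of 11464 genes were called. Of the other genes of the pathway that were tested, 0 were called between genotypes in OLs and 0 in astrocytes. In OLs, 4 of the 5 genes of LXR control and efflux could be tested.

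The genes whose pattern over the 10 cell types was most like that of the 7 genes were Tm7sf3 (Pearson's r = 0.982), Iftap (0.979), Nacad (0.965), Rdh11 (0.959) and Gm13572 (0.947), among 11839 genes outside the pathway, by the mean of the 7 centred patterns in the controls. The 7 genes themselves followed this mean unequally, although each is part of it. Their r was 0.944 for Lss, 0.938 for Dhcr7, 0.922 for Insig1, 0.706 for Cyp51, 0.625 for Hmgcs1, 0.514 for Srebf2 and 0.375 for Sqle. Lss, Dhcr7 and Insig1 had 0, 0 and 1 UMIs in mural cells of the controls. The named genes are thus like the mean and need not be like each of the 7. Each of the 10 points is the mean of a type, the types share libraries, and the small types weigh as much as OLs.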

How the data were processed

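Per the labels, the authors prepared nuclei from frozen ONs and built 10x Next GEM 3' v3.1 libraries aiming for 8000 nuclei each. The deposited matrices held raw UMI counts per gene and barcode, made with Cell Ranger 7.0.0 on GRCm39 per the submitters' processing notes, with all barcodes kept. The authors' later removal of background RNA and doublets is not part of these counts, and both were treated here by other means.

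Barcodes were called as nuclei by a knee rule and, from 500 UMIs on, by a test against the low-count profile (false discovery rate 0.01, 10000 simulations). Nuclei needed 200 genes and at most 5% mitochondrial UMIs, outliers were removed by median absolute deviations, and the highest doublet scores were removed at 0.8% per 1000 nuclei. Nuclei were clustered with scanpy 1.11.5 and Leiden resolution 3, with these genes left out. Cluster names came from fixed markers, by rules on their levels that were set after the clusters had been seen, and the shares of cell types may differ from the study's. UMI counts of the nuclei of a type in a library were added up (at least 10 nuclei and 1000 counts) and tested with edgeR 4.0.16 (filterByExpr, TMM, quasi-likelihood, Benjamini-Hochberg over all genes tested). DESeq2 1.42.0, no TMM, no filter, nuclei of at least 1000 UMIs, subtraction of expected outside RNA, a replicate block and each library left out were alternatives. The fits were tested on simulated data, where a log2 change of 1 was recovered for 99% of changed genes in OLs, 94.5% in astrocytes and 58.5% in OPCs.

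The expected outside RNA of a sum was the profile of barcodes ranked 45000 to 90000, scaled by the marker list of another cell type that gave the smallest share. All counts of that list were taken as outside RNA, which can raise the share. Taking the smallest share over the lists can lower it, most where a list has few counts. The share is therefore not a sure upper limit. OL and astrocyte deviations of the same library correlated at 0.431 to 0.681, and 8 of 8 libraries matched their own best. Cell types of a library come from the same mice and were treated as paired in the block; they also share its preparation and its RNA outside nuclei. The 7 genes and the gene lists were chosen with earlier results of these data known. All 7 genes were tested in every comparison where they passed the filter. Some results are given as a range or a count of calls and not gene by gene. Of the pathway lists, up to 4 called genes per list with the smallest adjusted p were eligible to be named. Other genes of the pathway are not analysed here. Limits for a count of 0 (3 counts over the group) cover counting error only, while intervals of 2 SE come from the fits and include the spread between libraries.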

Additional observations from a re-analysis of the deposited data

Results flagged for a closer look

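In 126 groups of 4 libraries, 9 held a library whose value stood apart from the other 3 by Dixon's criterion, where chance gives about 1 in 20 groups. In fibroblasts, Hmgcs1 was 180 CPM in cKO replicate 11 (others 125 to 134 CPM) and Insig1 was 41.0 CPM in the same library (others 29.7 to 30.8 CPM), the library that was also highest for all 7 genes in OLs of its group. Cyp51 in fibroblasts was 41.7 CPM in control replicate 1 (others 66.7 to 68.3 CPM), and Srebf2 in myeloid cells was 74.9 CPM in the same library (others 119 to 125 CPM). Cyp51 in empty droplets was 159 CPM in control replicate 4 (others 107 to 109 CPM). Lss in astrocytes was 9.45 CPM in control replicate 3, from 15 UMIs (others 17.3 to 18.6 CPM). The other values rest on few UMIs: Hmgcs1 in T cells was 426 CPM in control replicate 4 (17 UMIs, others 196 to 233 CPM), Dhcr7 in myeloid cells was 26.2 CPM in control replicate 4 (9 UMIs, others 7.74 to 10.7 CPM) and Dhcr7 in T cells was 49.0 CPM in control replicate 2 (3 UMIs, others 0 CPM). The causes were not tested.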

How the results depend on the processing

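The total count of called genes stayed within 1.5 times its first value in every comparison and alternative, although across cell types 7 of these calls were in OLs and never changed, and those outside OLs went from 2 to between 1 and 6 in the controls and from 9 to between 5 and 14 in libraries labelled cKO: 9 calls over all cell types of the controls (8 to 13 in the alternatives, 8 to 11 with 1 library left out), 16 in libraries labelled cKO (12 to 21, and 13 to 21) and 8 along the lineage (7 to 11, and 7 to 10), and 0 for the score, Piezo2 and genotype comparisons throughout. Of 1671 alternative values, which across cell types cover OLs and the calls first made, 1599 kept their side of the call, 51 lost the call with the same sign, 20 gained it and 1 lost it with another sign. The sign changed in 85 values, 84 of them called in neither fit, and the 1 that had been called was Hmgcs1, which in control neurons was 0.62 without mural cells, T cells and committed OPCs and with outside RNA subtracted, settings chosen after seeing the data, as were the fits without the OL cluster and the block with subtraction. In OLs against other types 0 of 98 values lost their call in either group. With the replicate block, lineage calls rose from 8 to 11 (Cyp51 0.70 and Hmgcs1 0.56 between committed OPCs and OPCs, and Insig1 0.61 between OLs and committed OPCs) and calls outside OLs from 2 to 5 and from 9 to 12, and no call was lost with the block. No paired analysis was made between genotypes, because the labels name no pairs of control and cKO libraries. Where a sum was left alone in its group, its spread was taken from the other groups. Depth limits the small cell types most: Lss and Dhcr7 had 1 to 9 UMIs in sums of committed OPCs.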

Other observations

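Other cell types of the control ONs differed from the mean of the remaining types in genes for cholesterol uptake, transport and its control. In myeloid cells Npc2, which carries cholesterol out of the lysosome, was higher by 1.40 ± 0.15 (log2, SE) and Stard3, a carrier of cholesterol between membranes, by 1.60 ± 0.22. Mylip, a ubiquitin ligase under LXR control that removes lipoprotein receptors, was higher there by 2.93 ± 0.24. In fibroblasts Insig2 was higher by 1.39 ± 0.17 and Mbtps1, a protease that cuts SREBP, by 0.68 ± 0.14, while the synthesis gene Acat2 was lower (-0.91 ± 0.28). Endothelial cells were higher for Scarb1, a receptor for high-density lipoprotein (1.47 ± 0.24), and for the lysosomal lipase Lipa (0.92 ± 0.29). Lrp1, a lipoprotein receptor, was higher in OPCs (2.18 ± 0.16) and lower in T cells (-2.26 ± 0.44). All these values passed the edgeR call, and were chosen from the pathway lists after the values were seen. They come from the first fit only, and alternatives are not given for them.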
